A study of Mus musculus with 6 samples.

Results

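The genes described here are 38 mouse genes that supply the building blocks of RNA and DNA, out of 11616 genes tested in the series. They were taken by name from a list of enzymes, which was drawn up with earlier results of these data known. By step, 8 act in the pentose phosphate pathway and in making phosphoribosyl pyrophosphate (PRPP), 11 in purine synthesis, 5 in pyrimidine synthesis, 6 in deoxynucleotide synthesis, and 8 in salvage and nucleotide phosphorylation.

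Expression was compared in Hepa1-6, an established mouse hepatoma line, after 3 days of transfection with siRNA in RNAiMAX. The control group was 3 libraries of cells given siRNA to Renilla luciferase (Luc siRNA), a gene mouse cells lack, and the other was 3 libraries of cells given siRNA to Crebl2, which encodes a CREB-like protein with a leucine zipper. All cells grew in DMEM with 4.5 g/L glucose and 10% FBS, and stranded total RNA libraries held 27082572 to 29158489 counts each. Crebl2 stood at 114, 113 and 112 CPM, counts scaled to a standard library total, in the control libraries and 29.1, 29.8 and 32.3 CPM in the Crebl2 siRNA libraries, a log2 fold change of -1.90 (SE 0.0582, adjusted p = 2.83e-12), so no library went against its label. Neither the number nor the sequence of the siRNAs is known here, and both groups are 1 cell line.

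The pentose phosphate pathway branches from glycolysis: its oxidative steps yield NADPH, and its other steps interconvert sugars and supply ribose 5-phosphate. PRPP synthetases activate that ribose, onto which the purine ring is built step by step, whereas the pyrimidine ring is made first and then joined to it. Ribonucleotide reductase converts ribonucleotides to deoxyribonucleotides, the substrates of DNA replication, and thymidylate synthase makes the nucleotide particular to DNA. Salvage enzymes return free bases and nucleosides to the pool, and the liver is a major organ of purine synthesis.

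Of the 38 members, 31 had enough counts to be tested. Expression of 13 rose after Crebl2 siRNA, 4 fell and 14 were not called at an adjusted p under 0.05 (edgeR, adjusted over all 11616 genes). Among all genes tested, 18.8% were called upward and 20.1% downward, so a large share of the transcriptome was called. In 21 of the 31 members the 3 CPM values of one group lay wholly above or below those of the other, against 48.8% of all genes. The median log2 fold change of the 31 was 0.12, with the lowest at -0.46 and the highest at 0.62, and that of all genes was 0.00519. Scaled by library size alone, 14 members were raised and 3 lowered, and all genes split into 2741 raised (23.6%) and 1920 lowered (16.5%) in place of 2180 and 2338. Nothing in the labels ties the libraries of a group to separate cultures, and p-values therefore reflect spread among these 6 libraries that may be only technical.

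**Figure D1:**
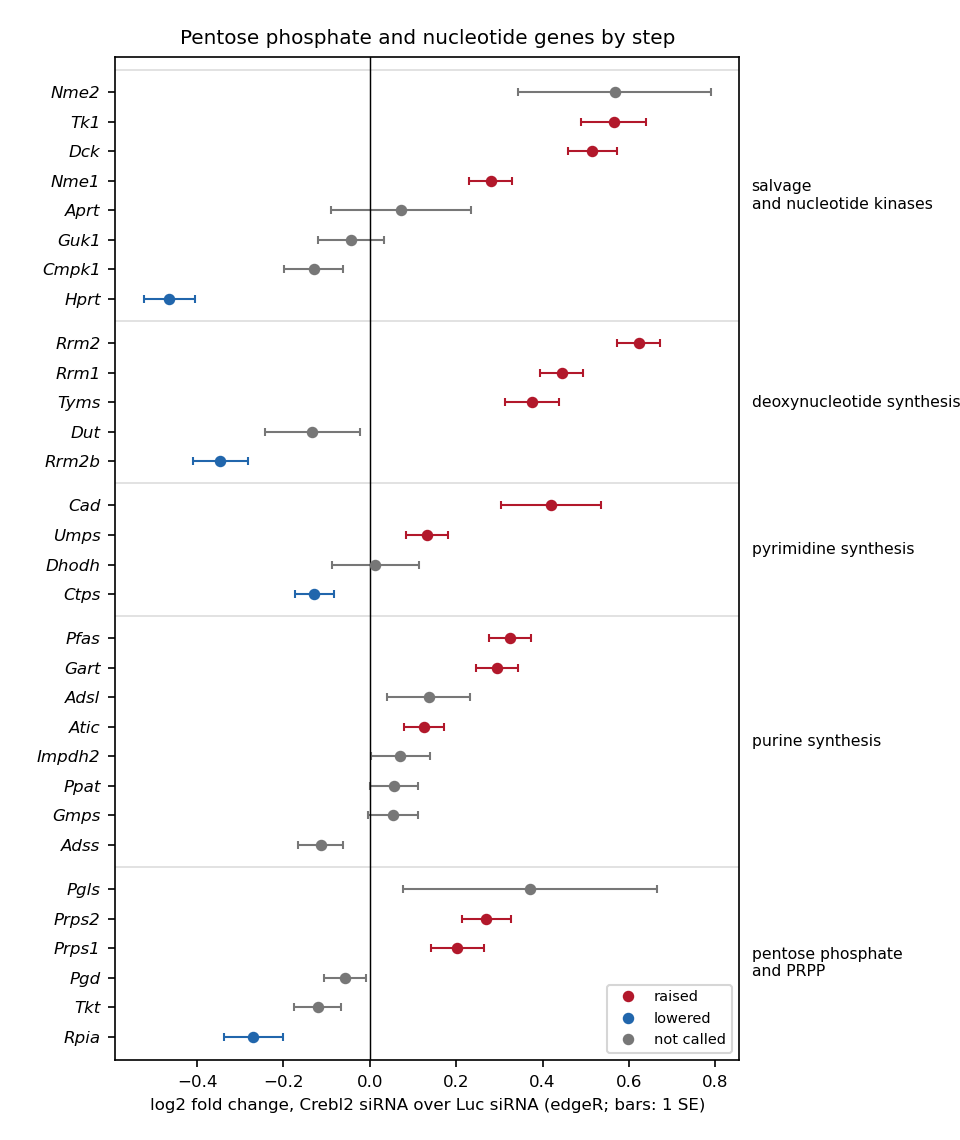
Log2 fold change of each of the 31 tested members, Crebl2 siRNA over Luc siRNA, grouped by step on the vertical axis; points are edgeR estimates, bars are 1 SE, and colour gives the call. Deoxynucleotide and salvage genes reach furthest in both directions, from Hprt at -0.46 to Rrm2 at 0.62, and 7 of 8 purine genes lie above 0.

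The genes that make deoxynucleotides had the highest median log2 fold change of the 5 steps, 0.38, with 3 of 5 tested members raised and 1 lowered. Both genes of the replicative ribonucleotide reductase rose: Rrm1, which encodes the large catalytic subunit, and Rrm2, the small subunit that is present mainly in S phase. Tyms, which encodes thymidylate synthase, rose too. The gene of the alternative small subunit, Rrm2b, a p53 target known to supply deoxynucleotides outside S phase and after DNA damage, fell.

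Rrm2 (chromosome 12, 24708241 to 24714146, GRCm38, plus strand) stood at 81.6, 81.9 and 85.2 CPM in control libraries and 129, 125 and 129 CPM after Crebl2 siRNA. The 2 groups were far apart compared with the spread inside either, and the log2 fold change of 0.62 (SE 0.0504, adjusted p = 8.43e-08) was the highest of all members. Rrm1 (chromosome 7, 102441695 to 102469771, plus strand) was at 214, 212 and 213 CPM in control libraries and 277, 286 and 308 CPM after Crebl2 siRNA. Its control values were almost identical, the Crebl2 siRNA values were more spread, and all 3 lay above every control, with a log2 fold change of 0.44 (SE 0.0504, adjusted p = 3.44e-06). Because the genes of both subunits rose, the 250 bases before each start site are shown, from RefSeq (GRCm38.p6), with the CCAAT box in capitals. The box binds the factor NF-Y in many genes of the cell cycle.
Rrm1, chr7:102441445-102441694, plus strand: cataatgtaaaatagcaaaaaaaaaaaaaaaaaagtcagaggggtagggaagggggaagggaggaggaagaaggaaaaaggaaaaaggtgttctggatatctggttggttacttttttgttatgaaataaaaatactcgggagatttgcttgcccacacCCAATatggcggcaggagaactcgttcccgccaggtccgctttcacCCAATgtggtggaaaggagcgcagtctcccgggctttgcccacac
Rrm2, chr12:24708004-24708253, plus strand: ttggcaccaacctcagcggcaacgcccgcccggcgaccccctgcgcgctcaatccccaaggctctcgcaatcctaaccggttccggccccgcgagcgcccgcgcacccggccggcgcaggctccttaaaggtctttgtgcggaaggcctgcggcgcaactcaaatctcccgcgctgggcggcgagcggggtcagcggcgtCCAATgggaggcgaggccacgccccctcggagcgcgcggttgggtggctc
The Rrm1 sequence holds 2 copies of CCAAT and the Rrm2 sequence 1, and neither holds any of the 4 E2F words described below. CCAAT, on either strand, was also found in 37.9% of all RefSeq promoter windows, so its presence sets neither gene apart.

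Rrm2b (chromosome 15, 37923952 to 37961318, minus strand) was at 58, 55 and 53.8 CPM in control libraries and 40.7, 44.1 and 46.4 CPM after Crebl2 siRNA. Every Crebl2 siRNA library was below every control, with a log2 fold change of -0.35 (SE 0.0631, adjusted p = 0.000374). Tyms was at 29, 29.9 and 30.9 CPM against 38, 38.9 and 39.7 CPM, again without overlap (log2 fold change 0.38, SE 0.062, adjusted p = 0.000151). Dut, which encodes the enzyme that removes dUTP and so keeps uracil out of DNA, was not called, with overlapping groups and a log2 fold change of -0.13 (SE 0.11, adjusted p = 0.369). Dctd, the deoxycytidylate deaminase gene, had 1 count over all 6 libraries.

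**Figure D2:**
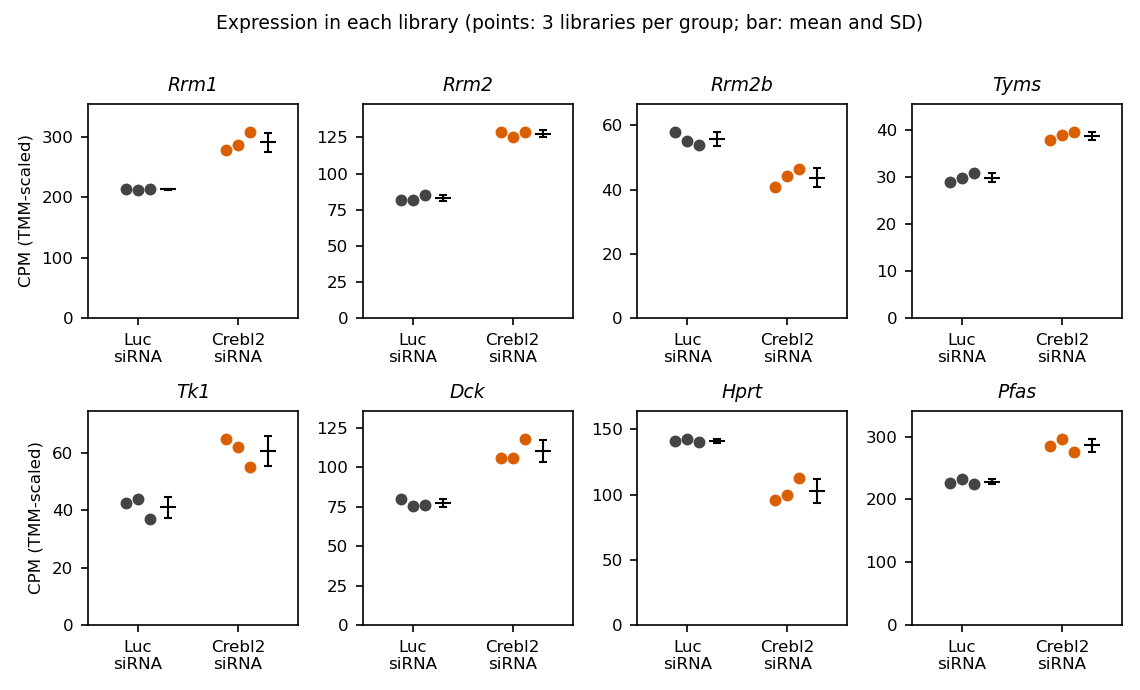
CPM (TMM-scaled) of 8 members in each library, with both groups on the horizontal axis and the vertical axis from 0; points are libraries and the bar is the mean and SD of 3. In none of the 8 panels do the groups overlap, and Rrm2b and Hprt are the panels in which the Crebl2 siRNA libraries are lower. Each of the 8 is a called member. Groups did not overlap in 21 of the 31 tested members and in 48.8% of all genes tested.

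The ratio of the small subunit genes was also taken within each library, where it does not depend on scaling. It restates the opposite changes given above and the pairs were chosen with earlier results known, so its test is not independent support. The log2 ratio of Rrm2 to Rrm2b counts was 0.492, 0.575 and 0.663 in control libraries and 1.66, 1.5 and 1.48 after Crebl2 siRNA. The groups lay far apart, with a difference of 0.97 between their means, and the exact two-sided permutation p was 0.1, the smallest that 3 against 3 libraries allow (0.15 adjusted over 3 pairs). Of 6 pairs of members with the same activity, 3 had enough counts for such a ratio. The log2 ratio of Prps1 to Prps2, the genes of 2 PRPP synthetases, differed by -0.07 between groups that did not overlap (exact p = 0.1, 0.15 adjusted). The log2 ratio of Nme1 to Nme2, the genes of 2 nucleoside diphosphate kinases, differed by -0.27 with overlapping groups (exact p = 0.3, 0.3 adjusted).

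**Figure D3:**
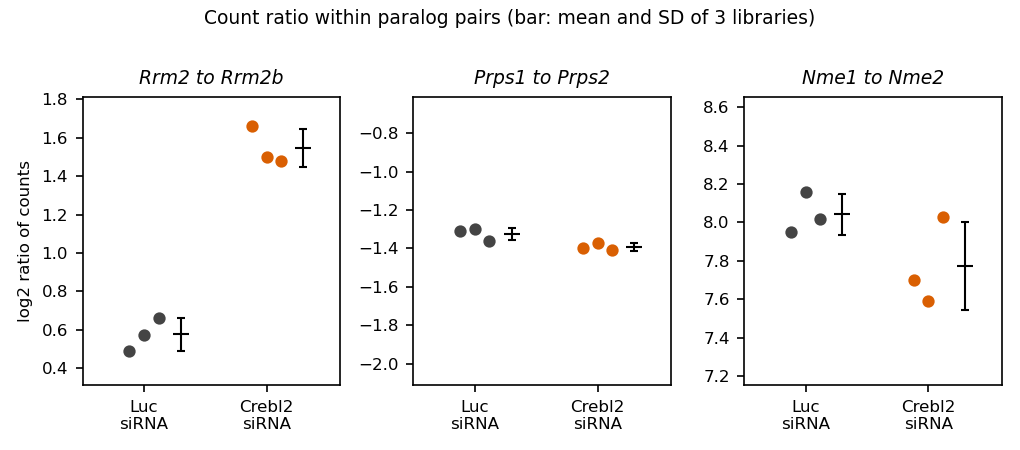
Log2 ratio of counts within 3 pairs of members in each library; points are libraries and the bar is the mean and SD of 3, and all 3 vertical axes span the same number of log2 units around different centres. The Rrm2 to Rrm2b ratio moves from a mean of 0.577 to 1.55, whereas the Prps1 to Prps2 means are -1.33 and -1.39.

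Salvage and nucleotide kinase genes split as well, with 3 of 8 raised, 1 lowered and a median log2 fold change of 0.18. Thymidine kinase 1 (Tk1) and deoxycytidine kinase (Dck), which start deoxynucleoside salvage, rose, as did Nme1, whose product forms nucleoside triphosphates from diphosphates. Tk2 and Dguok, deoxynucleoside kinase genes outside the members and named after their values were seen, did not rise. Tk2 was lowered (log2 fold change -0.31, adjusted p = 0.00649) and Dguok was not called (log2 fold change 0.04, adjusted p = 0.885). Hprt, whose product returns hypoxanthine and guanine to purine nucleotides and which is often used as a reference gene, fell further than any other member.

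Tk1 was at 42.4, 43.9 and 36.9 CPM in control libraries and 65, 62.2 and 55 CPM after Crebl2 siRNA (log2 fold change 0.56, SE 0.0753, adjusted p = 1.83e-05). In each group replicate 3 was the lowest, yet the groups did not overlap. Dck was at 79.9, 75.4 and 75.7 CPM in controls and 106, 106 and 118 CPM after Crebl2 siRNA (log2 fold change 0.51, SE 0.0567, adjusted p = 2.45e-06). Nme1 rose less, from 247, 271 and 262 CPM to 308, 324 and 316 CPM (log2 fold change 0.28, SE 0.0495, adjusted p = 0.000288). Its neighbour Nme2 had 81 control and 120 Crebl2 siRNA counts in all, a ratio of 1.48 (95% exact binomial interval 1.11 to 1.99, counting error only), and was not called (adjusted p = 0.0539). It was called under 3 alternative settings.

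Hprt (chromosome X, 52988137 to 53021659, plus strand) was at 141, 143 and 140 CPM in control libraries and 95.6, 99.5 and 113 CPM after Crebl2 siRNA. The control values differed by only a few CPM and every Crebl2 siRNA value was lower, for a log2 fold change of -0.46 (SE 0.0597, adjusted p = 1.26e-05). The purine counterpart Aprt, which salvages adenine, was not called at 238 control and 250 Crebl2 siRNA counts (log2 fold change 0.07, SE 0.162, adjusted p = 0.761). The guanylate kinase gene Guk1 (log2 fold change -0.04, adjusted p = 0.694) and the UMP/CMP kinase gene Cmpk1 (log2 fold change -0.13, adjusted p = 0.143) were not called either. Cmpk1 was at 65.2, 70.1 and 79.8 CPM after Crebl2 siRNA, and without replicate 3, the highest, it was called lower (log2 fold change -0.21, adjusted p = 0.00558).

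Earlier work on these counts found the word GAAATGT more often in the 3′ UTRs of lowered genes, so it was looked up in the members. It stood in 2 of the 4 lowered members, Hprt and Rrm2b, in 0 of the 13 raised ones and in 3 of the 14 not called, Adsl, Gmps and Ppat. Over all genes it stood in 29% of the lowered, 11.8% of the raised and 16.5% of those not called, and lowered genes had longer 3′ UTRs (median 1381 bases against 970.5 and 986.5). Each site in the 2 lowered members is shown with its flanks, from GENCODE M21 transcripts (GRCm38), with the word in capitals.
Hprt, chrX:53021246-53021272, plus strand: tttatttttaGAAATGTcagttgctgc
Rrm2b, chr15:37924355-37924381, minus strand: tgtgcatgaaGAAATGTagtgttcata
Without the siRNA sequence, whether the word has a part in the lower levels of Hprt and Rrm2b was not tested. When every gene with the word was dropped from the fit, an alternative chosen after seeing the data, 11 members were raised and 3 lowered. That fit no longer tests Hprt and Rrm2b, and its 3 lowered members were Rpia, Ctps and Tkt, the last of which was otherwise not called (adjusted p = 0.0423 there).

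Pentose phosphate and PRPP genes changed little and in both directions, with 2 of 6 tested members raised, 1 lowered and a median log2 fold change of 0.07. The median was 0.12 with scaling by library size and -0.05 when genes under 1 CPM were left out. The PRPP synthetase genes Prps1 and Prps2 were raised and Rpia, which encodes the isomerase that forms ribose 5-phosphate, was lowered. Prps2 was at 146, 153 and 151 CPM in controls and 169, 178 and 196 CPM after Crebl2 siRNA (log2 fold change 0.27, SE 0.0568, adjusted p = 0.00126). Prps1 was at 58.9, 62 and 58.7 CPM against 64, 69.1 and 73.6 CPM (log2 fold change 0.20, SE 0.0611, adjusted p = 0.0146). In both genes the groups did not overlap and Crebl2 siRNA replicate 3 was highest. The call for Prps1 was lost without control replicate 1 (adjusted p = 0.0507) or replicate 3 (adjusted p = 0.0685). Rpia was at 30.3, 30.8 and 28.6 CPM against 24.9, 23.6 and 26 CPM, also without overlap (log2 fold change -0.27, SE 0.0688, adjusted p = 0.00517).

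The oxidative step of 6-phosphogluconate dehydrogenase, encoded by Pgd, was not called, at 296, 303 and 299 CPM in controls and 298, 293 and 273 CPM after Crebl2 siRNA (log2 fold change -0.06, SE 0.0486, adjusted p = 0.385). Transketolase, encoded by Tkt, joins the pathway back to glycolysis and had the most CPM of all members. It was at 715, 740 and 718 CPM against 703, 685 and 610 CPM, groups that did not overlap but were not called (log2 fold change -0.12, SE 0.054, adjusted p = 0.0883). It was called lower without Crebl2 siRNA replicate 1 (adjusted p = 0.0265) and when genes with the word GAAATGT were left out (adjusted p = 0.0423). Pgls, the lactonase gene between the oxidative dehydrogenases, had 44 control and 57 Crebl2 siRNA counts, a ratio of 1.3 (interval 0.86 to 1.97), and was not called. Transaldolase (Taldo1) and the epimerase gene Rpe were not tested, with 14 and 4 control counts and 4 and 8 counts after Crebl2 siRNA.

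In purine synthesis 3 of 8 tested members were raised and 0 lowered, with a median log2 fold change of 0.10 (0.15 with scaling by library size). The 3 raised genes, Gart, Pfas and Atic, encode enzymes that build the ring on PRPP. Of the other ring-building genes, Ppat and Adsl were not called and Paics was not tested. No tested gene that turns the product of ring building, IMP, into AMP and GMP was called either. Pfas, which encodes the amidotransferase of the fourth step, was at 227, 233 and 225 CPM in controls and 285, 297 and 276 CPM after Crebl2 siRNA (log2 fold change 0.32, SE 0.048, adjusted p = 5.1e-05). Gart, which encodes a protein with 3 activities of the early pathway, was at 118, 120 and 119 CPM against 149, 145 and 143 CPM (log2 fold change 0.29, SE 0.0483, adjusted p = 0.000144). In both genes the gap between groups was wider than the range of either. Atic, whose product closes the ring, was at 457, 488 and 470 CPM against 506, 524 and 513 CPM. Its groups lay close together without overlap (log2 fold change 0.12, SE 0.0462, adjusted p = 0.0417), and the call was lost in 7 of 14 alternatives.

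The gene of the first committed enzyme, Ppat, was not called, at 125, 125 and 122 CPM in controls and 122, 127 and 138 CPM after Crebl2 siRNA (log2 fold change 0.06, SE 0.0551, adjusted p = 0.45). Adsl, whose enzyme acts both before and after IMP, had a log2 fold change of 0.14 (SE 0.0956, adjusted p = 0.283). On the branch to AMP, Adss was at 422, 392 and 397 CPM against 357, 364 and 398 CPM and was not called (log2 fold change -0.11, SE 0.0524, adjusted p = 0.0979). Its control replicate 1 was the highest and Crebl2 siRNA replicate 3 lay inside the control range, and without that replicate 3 it was called lower (log2 fold change -0.16, adjusted p = 0.0103). On the branch to GMP, Impdh2, which encodes the rate-limiting IMP dehydrogenase, was at 21.8, 22.8 and 21.9 CPM against 23.4, 23.2 and 23.2 CPM. Those groups did not overlap, but the gap was small and not called (log2 fold change 0.07, SE 0.068, adjusted p = 0.442). Gmps, the GMP synthase gene, had a log2 fold change of 0.05 (SE 0.0578, adjusted p = 0.503). Counts for Paics, which encodes the enzyme between Pfas and Adsl, were 7 in controls and 6 after Crebl2 siRNA. Adssl1 had 0 and 1 and Impdh1 1 and 2, and these 3 genes were not tested.

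In pyrimidine synthesis 2 of 4 tested members were raised and 1 lowered, with a median log2 fold change of 0.07 (0.12 with scaling by library size, 0.13 with no filter on low counts). Cad, whose product carries out the opening 3 steps, had 211, 156 and 196 counts in controls and 250, 244 and 258 counts after Crebl2 siRNA. The summed ratio was 1.34 (interval 1.2 to 1.49), the log2 fold change 0.42 (SE 0.115, adjusted p = 0.00823), and every Crebl2 siRNA library was above every control. Control replicate 2 was the lowest, and without it the log2 fold change was 0.30 and the call was lost (adjusted p = 0.0612). Umps, which encodes the enzyme that completes UMP, was at 147, 154 and 154 CPM against 168, 162 and 169 CPM (log2 fold change 0.13, SE 0.0491, adjusted p = 0.0427). Ctps, which encodes the main CTP synthase, was at 357, 349 and 344 CPM against 317, 317 and 326 CPM (log2 fold change -0.13, SE 0.0453, adjusted p = 0.0338). The groups of both genes were separate by a small margin, and the calls were lost in 9 and 8 of 14 alternatives. Dhodh, whose product is the mitochondrial step of the pathway, had 728 control and 734 Crebl2 siRNA counts and was not called (log2 fold change 0.01, SE 0.101, adjusted p = 0.939). Ctps2 had 1 count over all libraries.

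The 7 members without a test are Taldo1, Rpe, Paics, Adssl1, Impdh1, Ctps2 and Dctd. Reads were apparently counted only where 1 transcript model alone lies, and these genes had 43 to 346 such bases of their own in all, so a low count says little of their expression. A count of 0 in a library allows up to 3 counts, which is 0.103 to 0.111 CPM, and covers counting error only. Summed over libraries, Taldo1 gave a ratio of 0.286 (interval 0.0686 to 0.911) on 14 against 4 counts, with 8 of the 14 in control replicate 1. For the other 6 genes, with at most 8 counts in either group, no difference was detectable on so few counts.

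Levels of different genes can be compared only per length of countable sequence, and then only for members with at least 1000 bases of their own. By CPM per 1000 own bases in controls, Tkt was highest at 225, followed by Atic at 166, Adss at 146, Pgd at 135, Ctps at 129 and Hprt at 110. The reductase genes stood at 53.4 (Rrm1), 37.8 (Rrm2) and 15.2 (Rrm2b), Tk1 at 30.2 and Dck at 25. Tyms at 9.47, Dut at 5.34 and Adsl at 4.3 were the lowest. On this scale most members that rose sat in the middle or lower part of the order, whereas of the 5 highest only Atic was raised. Ctps was lowered, and Tkt, Adss and Pgd were not called.

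A median over the tested members of a step was also taken in each library, as the log2 level against the control mean. For deoxynucleotide genes it was 0.01, -0.02 and -0.000668 in controls and 0.34, 0.38 and 0.41 after Crebl2 siRNA. For salvage genes it was 0.03, 0.02 and -0.02 against 0.29, 0.17 and 0.15. Purine genes gave -0.01, 0.02 and -0.02 against 0.09, 0.06 and 0.17. In those 3 steps the Crebl2 siRNA libraries lay above all controls. Pentose phosphate and PRPP genes gave -0.02, 0.03 and -0.01 against 0.04, 0.05 and 0.08. There too the Crebl2 siRNA libraries lay above all controls, but the groups nearly met. Pyrimidine genes gave -0.01, 0.01 and 0.0415 against 0.12, 0.06 and 0.0372, so that replicate 3 of the controls lay above replicate 3 of the Crebl2 siRNA group. These medians describe the members chosen and carry no test.

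**Figure D4:**
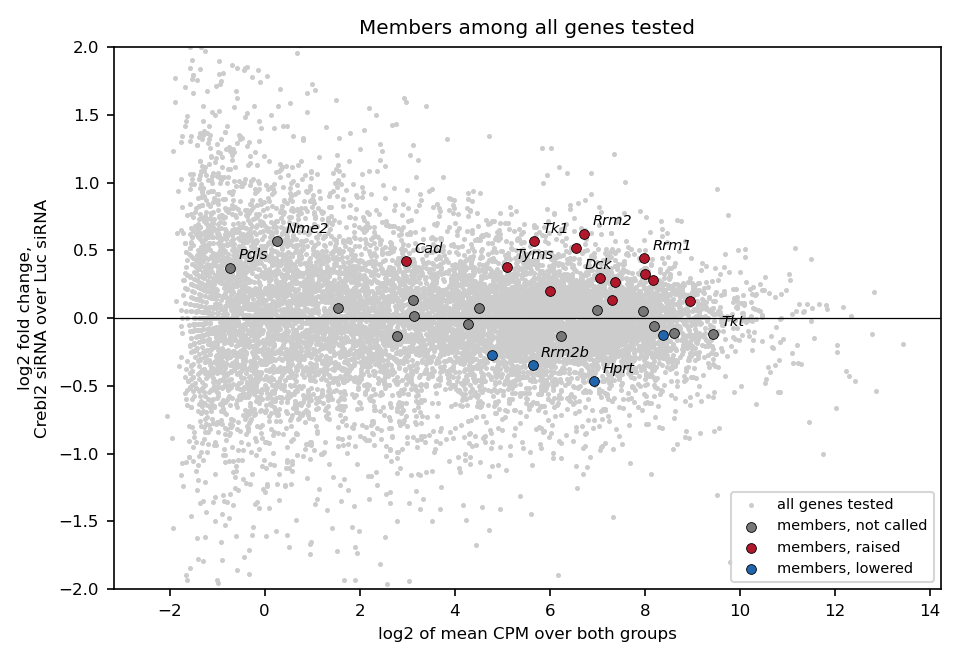
Log2 fold change, Crebl2 siRNA over Luc siRNA, against log2 mean CPM for all 11616 genes tested (small grey points) and the 31 tested members (large points coloured by call). The members stay between -0.46 and 0.62, inside the spread of genes of like level, and 59 other genes lie outside the axis at 2 log2 units.

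Promoters of 35 members were searched on both strands, from 250 bases before to 50 after the RefSeq start site (GRCm38.p6), for words bound by factors with known roles in growth or in CREB signalling. Each word is given here with the share of all 27025 gene windows and of the 8333 windows of tested genes that hold it. The E-box CACGTG, bound by Myc and related proteins, was in 5 members (14.3%), against 7.24% of all and 10.2% of tested genes. The full CRE TGACGTCA, the site of CREB, was in 1 member (2.86%), against 1.88% and 3.23%. E2F words (TTTCCCGC, TTTCGCGC, TTTGCCGC or TTTGGCGC) were in 2 members (5.71%), Ppat and Prps2, against 2.32% and 4.16%. Prps2, whose window is not shown, was raised, and Ppat was not called. CCAAT was in 13 members (37.1%), against 37.9% and 39.1%. A match is a description of letters and not a bound site. Windows with the E-box, the CRE and both E2F words of Ppat are shown with the word in capitals, since Atic, Tyms, Nme1 and Umps among them were raised, Impdh2 and Ppat were not called, and Paics was not tested.
Atic, chr1:71557129-71557174, plus strand: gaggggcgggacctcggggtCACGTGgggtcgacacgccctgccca
Tyms, chr5:30073661-30073706, minus strand: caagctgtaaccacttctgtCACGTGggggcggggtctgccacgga
Nme1, chr11:93968265-93968310, minus strand: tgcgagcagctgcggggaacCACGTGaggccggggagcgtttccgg
Impdh2, chr9:108560306-108560351, plus strand: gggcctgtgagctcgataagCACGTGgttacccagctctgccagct
Paics, chr5:76951079-76951124, plus strand: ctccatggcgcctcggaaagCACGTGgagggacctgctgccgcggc
Umps, chr16:33967019-33967055, minus strand: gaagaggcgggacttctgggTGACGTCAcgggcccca
Ppat, chr5:76951762-76951809, minus strand: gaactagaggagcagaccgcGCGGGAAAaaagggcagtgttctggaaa
Ppat, chr5:76951709-76951756, minus strand: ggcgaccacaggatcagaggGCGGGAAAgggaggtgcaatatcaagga
Counted from the start site, with 1 as its first base, the E-box began at -7 in Atic, -18 in Nme1, -61 in Tyms, -110 in Impdh2 and -203 in Paics. The CRE of Umps began at position 4, inside the transcript, and the Ppat words, on the opposite strand, at -158 and -211. Of the 5 members with the E-box, 3 were raised, 1 was not called and 1 was not tested. Of all 31 tested members 13 were raised, and of all genes 18.8%. The call of Atic, 1 of the 3, was lost in 7 of 14 alternatives. Whether the E-box has a part in these changes was not tested.

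Of 69 other genes of nucleotide metabolism, 50 were tested, with a median log2 fold change of -0.01. Of the 50, 11 were raised, 10 lowered and 29 not called, shares close to the 18.8% upward and 20.1% downward of all genes. Raised genes with the smallest p included Mthfd1 and Shmt1, of folate-dependent synthesis. Mthfd1, which makes the formyl folate used in the purine ring, rose from 203 to 273 CPM (log2 fold change 0.43, adjusted p = 4.68e-06). Shmt1, which loads folate with a carbon from serine, rose from 143 to 187 CPM (log2 fold change 0.38, adjusted p = 3.92e-05). The related folate genes Mthfd2, Shmt2 and Mthfd1l, named after their values were seen, did not rise. Mthfd2 was lowered (log2 fold change -0.34, adjusted p = 0.00173), and Shmt2 and Mthfd1l were not called (log2 fold change -0.03 in each). Cmpk2, a mitochondrial nucleotide kinase gene, rose from 31.9 to 48.1 CPM (log2 fold change 0.59, adjusted p = 2.65e-06).

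Among the lowered, Xdh, which encodes the xanthine oxidoreductase that ends purine breakdown in uric acid, went from 9.61, 9.57 and 8.63 CPM to 4.94, 4.07 and 4.98 CPM. That log2 fold change of -0.99 (SE 0.115, adjusted p = 4.32e-06), from 775 to 389 counts, was larger than that of any member, and the groups lay well apart. Upb1, the last enzyme gene of uracil breakdown, fell from 31.5 to 23.1 CPM (log2 fold change -0.45, adjusted p = 0.000155). The salvage kinase genes Uck2, for uridine and cytidine, and Adk, for adenosine, fell from 605 to 502 CPM (log2 fold change -0.27, adjusted p = 0.000243) and from 329 to 275 CPM (log2 fold change -0.26, adjusted p = 0.000383). Uck2, Adk and Upb1 hold the 3′ UTR word GAAATGT, as do 5 of the 10 lowered, 1 of the 11 raised and 2 of the 29 genes not called on this list. The gene of the first oxidative pentose phosphate enzyme, G6pdx, named after its value was seen, was not called, at 262 CPM in controls and 271 CPM after Crebl2 siRNA (log2 fold change 0.05, SE 0.0533, adjusted p = 0.494).

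Markers of S phase and DNA replication were also higher after Crebl2 siRNA. Of 16 such genes, none of them a member, 14 were tested, 10 were raised and 0 lowered (median log2 fold change 0.41). Among all genes 18.8% were called upward and 20.1% downward. The summed level of the 16 ran from 1272 to 1313 CPM in controls and from 1541 to 1614 CPM after Crebl2 siRNA. In bulk RNA, more cells in S phase and more of these mRNAs per cell cannot be told apart, and the part of cell cycle stage in the members' changes was not tested. Of 12 hepatocyte and hepatoma markers, 8 were tested, 2 raised and 3 lowered, with summed levels of 1117 to 1200 CPM and 1058 to 1140 CPM and Hnf4a at 0. Leukocyte markers summed to 0.609 to 1.05 CPM and 0.685 to 1.07 CPM, with Ptprc at 0. The 5 endothelial markers (Tek at 0, 1 tested and raised) summed to 19.6 to 23.1 CPM in controls and 33.1 to 37.2 CPM after Crebl2 siRNA. The 6 fibroblast and stellate markers (Pdgfrb at 0, 3 tested, 1 raised and 1 lowered) summed to 224 to 236 CPM and 178 to 197 CPM. The part of other cells in the members' changes was not tested.

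Crebl2 siRNA replicate 2 stood apart in its mitochondrial share, 0.859% of counts against 2.09% to 2.52% in the other 5 libraries. Without it 11 members were raised and 3 lowered, with Atic, Umps and Ctps no longer called. Reads from some members could be mixed with those of other genes. Near-identical copies are annotated for Impdh2, Tyms, Aprt and Prps1, a readthrough gene spans Nme1 and Nme2, and Gart, Impdh2, Paics, Ppat, Rpe, Tk1 and Umps overlap a gene on the other strand. Pfas and Tkt each overlap an annotated microRNA gene on their own strand. The strand setting of the counting is not known here, so values of these genes are uncertain to that extent. Among genes for which none of these is listed here, Rrm1, Rrm2, Dck and Prps2 kept their upward calls in each of the 14 alternatives.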

How the data were processed

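RNA sequencing of 6 Hepa1-6 libraries, 3 per group, was analysed. The authors deposited whole-number read counts for 58611 Ensembl transcripts in each library, not normalised. Per the submitters' processing notes, Trim Galore, TopHat, HTSeq and the builds mm9 and GRCm38 were used, in steps and with settings that are not stated. Of the transcripts, 58264 matched GENCODE M21 (GRCm38) and 347, with at most 0.0497% of a library's counts, did not. Counts were summed per gene and tested with edgeR 4.0.16 under R 4.3.3 (quasi-likelihood, two-sided, TMM scaling, filterByExpr), with Benjamini-Hochberg adjustment over the 11616 genes kept and calls at an adjusted p under 0.05. CPM values were computed here from counts and TMM-scaled library sizes, and the mean ± SD in plots is over 3 libraries. Ratios within libraries used a prior count of 0.5 and an exact permutation test. Intervals at 95% are exact binomial and cover counting error only. Library totals were 27082572 to 29158489 counts, and precision is low in genes of a few counts.

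The members and lists were chosen with earlier results of these data known. All members are named, and of other nucleotide genes the 4 with the smallest p in each direction, except 1 that is not reported here. The alternatives were DESeq2 1.42.0, its size factors, library size scaling, no filter on low counts, a 1 CPM filter, a replicate block, the transcript with the most counts, each library left out, and genes with a 3′ UTR word left out. The procedure was tested on simulated data. Pairs of libraries within a group differed by more than counting noise (chi-square per degree of freedom 2.82 to 21.1), so none was a copy of another, though this does not show separate cultures.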

Additional observations from a re-analysis of the deposited data

How the results depend on the processing

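Over 14 alternatives, 13 of them planned and 1 (genes with the 3′ UTR word left out) chosen after seeing the data, 10 to 14 members were raised and 3 to 6 lowered. Of the 13 raised members, 9 kept their call in each alternative, as did 3 of the 4 lowered ones wherever they were tested. Atic, Umps, Ctps, Prps1 and Cad did not. Same-numbered libraries of the groups deviated with correlations of -0.133, -0.0443 and -0.0847, so no shared deviation by number was seen. Whether same-numbered libraries were prepared together is not known. With the replicate block 11 members were raised and 3 lowered, 11 and 9 of the other nucleotide genes, and 1882 and 2101 of all genes. Scaling by library size moved the medians to 0.1219 for pentose phosphate, 0.147 for purine, 0.1209 for pyrimidine and 0.4245 for deoxynucleotide genes. The 1 CPM filter, which drops Pgls, gave -0.04941 for pentose phosphate genes, and no filter, which adds Ctps2, gave 0.126 for pyrimidine genes. The salvage median was 0.2614 without genes that hold the word, Hprt among them, and 0.1178 to 0.2312 with 1 library left out. Among single members, signs reversed only in genes that were not called. With 1 library left out, log2 fold changes ran from -0.01637 to 0.1096 for Gmps, -0.04967 to 0.05952 for Dhodh (-0.02482 without Crebl2 siRNA replicate 1), -0.07332 to 0.1824 for Aprt and -0.08299 to 0.0009718 for Guk1. Dhodh was at -0.006119 without genes holding the word and Guk1 at 0.005161 with library size scaling. The cause of these reversals was not tested. Low counts limit Pgls and Nme2, and the 7 untested members, which had few countable bases of their own. Few such bases also lie behind the tested members Aprt (222), Cad (395), Pgls (399), Guk1 (413), Dhodh (584) and Nme2 (596). Their values apparently cover only a part of each gene.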

Other observations

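Breakdown genes, the largest class among the other genes of nucleotide metabolism, split, with a median log2 fold change of -0.11. Of 13 tested, 2 were raised and 4 lowered, against 18.8% of all genes called upward and 20.1% downward. Genes named here were chosen after their values were seen. Besides Xdh and Upb1, the AMP deaminase gene Ampd3 (mean 28.2 against 22.6 CPM, log2 fold change -0.32, adjusted p = 0.00492) and the thymidine phosphorylase gene Tymp (217 against 144 counts, log2 fold change -0.59, adjusted p = 0.0143) fell. The adenosine deaminase gene Ada rose from 30.9 to 38 CPM (log2 fold change 0.30, adjusted p = 0.00443), and the nucleotidase gene Nt5c rose on few counts, 29 against 70 (ratio 2.42, 95% exact binomial interval 1.55 to 3.87). None of the 3 tested nucleoside transporter genes, Slc29a1, Slc29a2 and Slc29a3, was called by edgeR.

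Gart has 2 annotated transcripts with countable bases, a long one that spans the whole coding region and a shorter one that ends early. Counts on the short one were 8.21, 8.41 and 9.46% of those on the long one in control libraries and 8.1, 6.57 and 7.78% after Crebl2 siRNA. The groups did not overlap, but by a narrow margin, and the exact two-sided permutation p was 0.1, the smallest possible with 3 against 3. The comparison was chosen after the values were seen.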
